A study of Mus musculus with 4 samples.

Results

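The list described here holds every region on mouse autosomes 1 to 19 at which chromatin immunoprecipitated with an antibody against histone H3 acetylated at lysine 27 (H3K27ac) exceeded input DNA in embryoid bodies at day 6. It has 29461 peaks of the 30047 in the whole H3K27ac list, the other 586 lying on chromosome X, and 86919 peaks stand in the 3 lists of the series together. Embryoid bodies are aggregates that embryonic stem cells form in suspension, in which cells leave the pluripotent state and enter several lineages at once. The stem cells came from Trim33FF: UbcCreERT2 blastocysts of an outbred B6:129Sv background, at passages 8 to 12. All 4 libraries (Trim33, CTCF, H3K27ac and input) carry the conditional Trim33 allele and the ubiquitin promoter-driven, tamoxifen-dependent Cre, and the labels list no inducing treatment. The cells were held with the MEK inhibitor PD0325901, the GSK3 inhibitor CHIR99021 and LIF, then differentiated in serum. The harvest of 20 dishes was crosslinked with 1% formaldehyde for 15 min, and the H3K27ac reaction took 30 µg of the chromatin.

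The authors' deposited summary gives 38080890 reads for the H3K27ac library and 35873121 for the input, of which 29995044 and 25729171 tags were used, with 13.02% of reads inside peaks. There was 1 library of each kind, so no value below has a replicate, no test was made between conditions, and intervals in parentheses are 95% Wilson intervals that cover counting error only. Names in that summary give the H3K27ac and CTCF libraries one project code and the input and Trim33 libraries another, so immunoprecipitation and project code cannot be told apart in the fold over input. In a mixture of cells, acetylation in fewer cells and less acetylation per cell cannot be told apart either.

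Acetylation of lysine 27 is placed on histone H3 by the acetyltransferases p300 and CBP and stands at active promoters and active enhancers. At promoters it flanks the start of transcription, which is itself largely free of nucleosomes. Genes that set cell identity often carry long runs of acetylated enhancers, while genes needed in every cell usually carry a single compact domain over their start.

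Promoter sequences of genes at the extremes of the list are shown first, because starts carried many of the highest peaks of this list and the base composition of these sequences recurs below. Each run holds 120 bases, from 100 before to 20 after the annotated start, read 5′ to 3′ in transcript sense from RefSeq (GRCm38.p6, the mm10 build). Capitals mark matches, on either strand, to 5 motifs. These are the GC box GGGCGG, whose reverse reads CCGCCC, the CCAAT box, whose reverse reads ATTGG, the TATA box TATAAA, the ETS core CCGGAAG and the E-box CACGTG. A match describes letters, not a bound site.
Rbm39, the highest peak, chr2:156180219-156180338, minus strand: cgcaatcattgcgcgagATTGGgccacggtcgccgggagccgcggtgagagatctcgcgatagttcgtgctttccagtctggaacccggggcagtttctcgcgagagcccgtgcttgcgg
Hnrnpu, the second highest, chr1:178337796-178337915, minus strand: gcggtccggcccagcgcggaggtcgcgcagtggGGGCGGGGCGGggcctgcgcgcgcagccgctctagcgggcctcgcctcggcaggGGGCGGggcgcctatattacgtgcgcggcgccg
Rpl19, the highest among ribosomal protein genes, chr11:98026824-98026943, plus strand: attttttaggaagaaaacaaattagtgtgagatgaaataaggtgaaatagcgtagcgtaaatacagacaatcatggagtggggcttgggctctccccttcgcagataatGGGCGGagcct
Pkm, the highest among glycolysis genes, chr9:59656476-59656595, plus strand: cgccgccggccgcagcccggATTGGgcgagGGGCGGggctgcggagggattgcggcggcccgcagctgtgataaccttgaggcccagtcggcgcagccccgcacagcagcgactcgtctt
Trim71, the longest acetylated length among pluripotency genes, chr9:114564350-114564469, minus strand: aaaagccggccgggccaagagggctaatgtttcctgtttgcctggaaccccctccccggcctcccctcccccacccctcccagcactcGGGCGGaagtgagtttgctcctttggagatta
Otx2, the longest among endoderm and neural regulators, chr14:48667625-48667744, minus strand: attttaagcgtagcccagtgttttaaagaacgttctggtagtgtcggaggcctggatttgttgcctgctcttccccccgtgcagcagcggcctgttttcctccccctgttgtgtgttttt
Agrn, the widest peak, chr4:156197469-156197588, minus strand: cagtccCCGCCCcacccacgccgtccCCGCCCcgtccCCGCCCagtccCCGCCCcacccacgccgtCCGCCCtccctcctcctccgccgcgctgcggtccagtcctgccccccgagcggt
Hspa5, a chaperone gene with no listed peak, chr2:34771990-34772109, plus strand: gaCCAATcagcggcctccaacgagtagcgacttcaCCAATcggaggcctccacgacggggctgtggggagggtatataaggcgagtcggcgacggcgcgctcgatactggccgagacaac

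Acetylated regions were short and covered a small share of the genome. The 29461 peaks summed to 19.5 Mb, or 0.790% of the 2463 Mb of autosomes. Width ran from 200 bp to 11129 bp with a median of 444 bp, the middle of the list lying between 282 and 796 bp. The minimum of 200 bp was reached by 717 peaks, and 1198 peaks (4.07%) were wider than 2 kb, of which 46 exceeded 5 kb. The 2946 widest peaks held 32.1% of all acetylated bases, and the 294 widest, each at least 3117 bp, held 6.32%.

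Fold is the authors' enrichment of the immunoprecipitated tags over background at the summit, as MACS gives it. Its median was 6.72, its quartiles 5.40 and 9.47, and its range 2.20 to 45.3. Wider peaks were also higher, with a Spearman correlation of 0.611 across the 29461 peaks, which share 1 library and 1 input. Peaks just inside the authors' threshold had a −log10 p of 7.03, and those below it are not in the list.

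**Figure D1:**
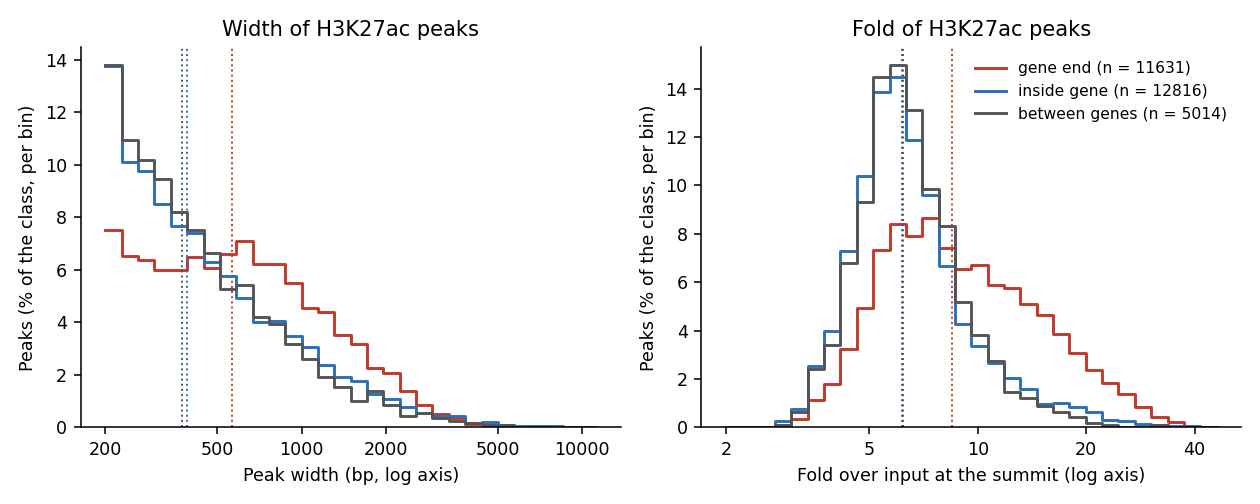
Distributions of peak width in bp (left) and of fold over input (right), both on log axes, as the percent of peaks per bin for summits at gene ends (1 kb), inside genes, or between genes; dotted lines are the medians of each class. Gene-end peaks reach further to the right in both panels, the medians being 566 bp and 8.50.

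For 39.5% of peaks (38.9 to 40.04) the summit was no more than 1 kb from a boundary of a gene, coding or not. Inside genes and away from their ends lay 43.5%, and between genes 17.02%. These gene-end peaks were the widest and highest class, with medians of 566 bp and 8.50. The median fold was 6.16 inside genes and 6.21 between genes, where the median width was 374 bp. Gene-end peaks held 45.6% of the acetylated bases.

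Fold sorted the list by place more steeply than width did. From the lowest to the highest decile of fold the share at gene ends went from 22.9% to 76.1%, and the share between genes from 19.6% to 3.97%. Across deciles of width the gene-end share went from 25.9% to 53.3%. Peaks of the CTCF list, the protein of insulators and loop anchors, overlapped 14.7% of H3K27ac peaks, 8.28% in the narrowest decile and 27.6% in the widest. Trim33 peaks overlapped 1.77% of the narrowest decile and 20.4% of the widest. The part of width itself in these overlaps was not tested.

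**Figure D2:**
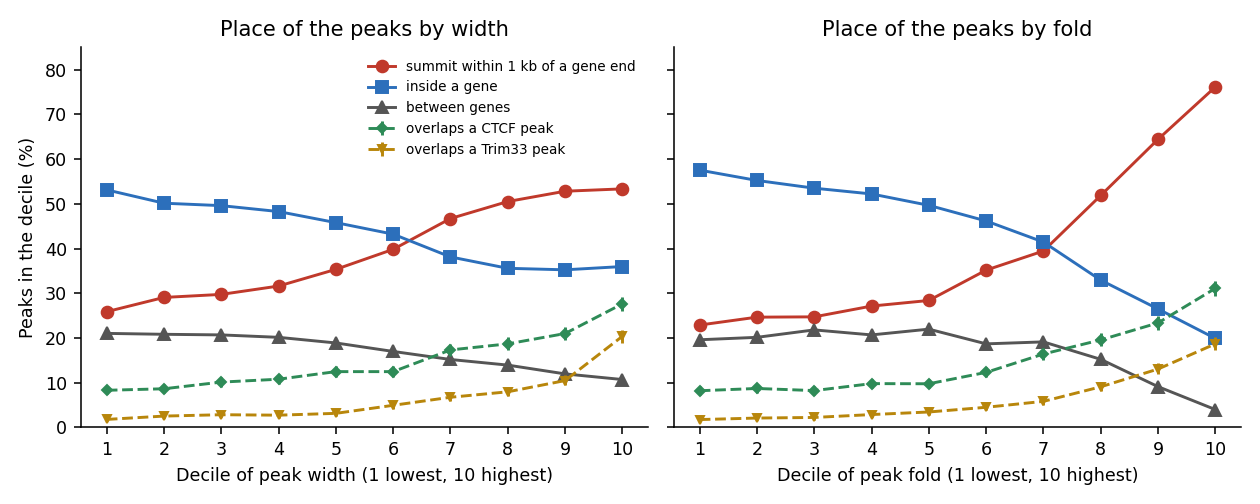
Percent of H3K27ac peaks at gene ends, inside genes, between genes, and overlapping a CTCF or Trim33 peak by at least 1 bp, in each decile of peak width (left) and fold (right); bars on the CTCF and Trim33 points are 95% Wilson intervals. The gene-end share reaches 76.1% in the highest decile of fold and 53.3% in the widest decile.

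Starts of protein-coding genes were examined with the strand of the transcript. Strand was known for 16457 of 20665 autosomal coding genes (20063 starts, none on chromosome 18). A peak lay within 1 kb of 8563 of these starts, which is 42.7% of them (42.0 to 43.4). The start itself was inside a peak in 55.9% of those cases and in a gap between 2 peaks in 15.8%. A peak stood downstream only in 21.3% and upstream only in 6.97%.

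Coverage around these starts had 2 humps with a trough between them. Peaks covered 51.6% of the acetylated starts at 300 bp upstream, 44.0% at 100 bp upstream and 83.3% at 200 bp downstream, falling to 7.30% at 2000 bp downstream. Of 9048 summits within 1 kb of a start, 70.4% were downstream (69.4 to 71.3), at a median of 218 bp. The upstream summits had a median position of -341 bp.

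**Figure D3:**
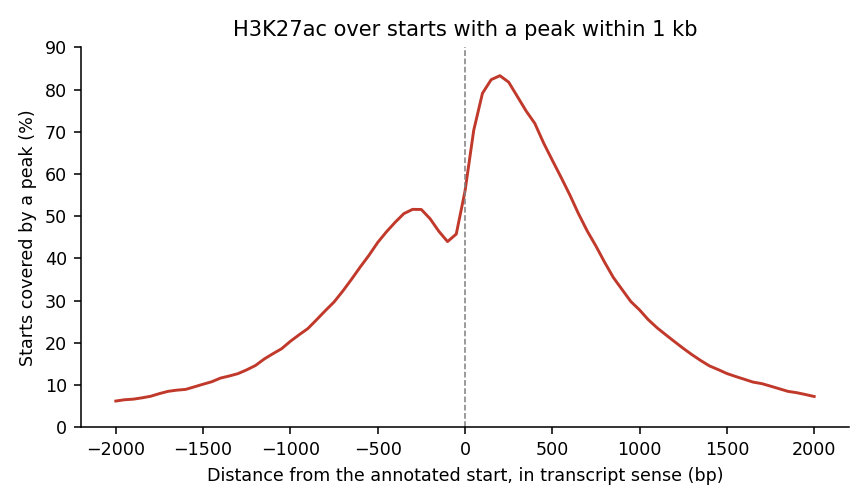
Percent of the 8563 starts with a peak within 1 kb that are covered by an H3K27ac peak (vertical axis) against distance from the start in transcript sense in bp (horizontal axis, dashed line at the start). The curve has a minor hump of 51.6% at 300 bp upstream, a trough of 44.0% at 100 bp upstream and a maximum of 83.3% at 200 bp downstream.

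Acetylated starts were richer in G, C and CpG. Over the 300 bases from 250 before to 50 after the start, the median GC content was 62.3% with a peak and 51.7% without. The ratio of observed to expected CpG had medians of 0.810 and 0.294. The GC box was found in 68.4% of acetylated and 31.1% of other promoters, and in 47.0% of all. The ETS core was found in 21.5% against 4.76% (11.9% of all), and the E-box in 10.7% against 5.78% (7.89% of all). The TATA box went the other way, at 5.75% with a peak and 17.9% without (12.7% of all).

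The CCAAT box was found in 37.7% of promoters with a peak and 38.4% without (38.1% of all). Motifs made of G and C are more frequent in GC-rich sequence, and the part of base composition in these differences was not tested. Among the sequences shown, GC content over 120 bases ran from 43.3% at Rpl19 to 81.7% at Hnrnpu and Agrn.

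The 10 highest folds were at genes of varied functions. The first was the 1974 bp peak at Rbm39, a splicing factor gene, with a fold of 45.3. It was followed by 44.6 at Hnrnpu, 42.5 at Ccdc58, 41.0 at Rpl19 and 40.6 at Pkm, the pyruvate kinase gene. Next were Csnk2a1, encoding a casein kinase 2 catalytic subunit, at 40.5, and Npepps, an aminopeptidase gene, at 39.6. Brd2, whose protein reads acetylated histones, and Trim71, a stem cell ubiquitin ligase, both had 39.4. The tenth, at 38.9, stood 39 bp from the miRNA gene Mir1893 inside Epc1, a subunit gene of the NuA4 acetyltransferase complex, on chromosome 18.

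All 10 of these summits lay inside the named coding gene, 9 of them within 2 kb of an end of some annotated gene. The exception was Rpl19, at 3.28 kb from the ends of its annotated gene, where the peak covered the start printed above. The 10 peaks were 1459 to 5547 bp wide, all above the median of the list.

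The widest peaks were at other genes. The widest peak, 11129 bp with a fold of 23.5, lay inside Agrn beside its start. Agrn encodes the basement membrane proteoglycan agrin. The second, 10621 bp with a fold of 14.5, had its summit 755 bp from the end of Malat1, the abundant nuclear noncoding RNA. Gnai2, a G protein subunit gene, had a peak of 8110 bp, and Shb, an adaptor of tyrosine kinase signalling, one of 8061 bp. Kdm2b and Kdm6b, histone demethylase genes, had 8025 bp and 7268 bp, Ahdc1 7985 bp, the kinase gene Nuak2 7584 bp, the receptor kinase gene Tyro3 7468 bp, and Serpinh1, the collagen chaperone gene, 7206 bp. None of the 10 widest was among the 10 highest, and their folds ran from 11.8 at Kdm6b to 23.5 at Agrn.

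Peaks were clustered along the chromosomes. Of the gaps between neighbours, 44.2% were at most 1 kb and 40.8% were over 10 kb. When peaks separated by at most 1 kb were joined, 16440 regions resulted, of which 9463 (57.6%) held 1 peak and 737 held 5 or more, with a median of 909 bp. The longest joined region, 42.9 kb with 21 peaks, ran along Trim71, and peaks filled 87.6% of it. Myh9, encoding nonmuscle myosin IIA, followed with 30.7 kb, Unc5b, a netrin receptor gene, with 26.3 kb, and Ank2, encoding ankyrin B, with 24.6 kb. Actn4, an alpha-actinin gene, had 23.5 kb, Pmepa1, a TGF-beta target gene, 22.6 kb in 23 peaks, and Ddc, the aromatic amino acid decarboxylase gene, 22.5 kb. A run of 19.1 kb on chromosome 13 lay over 7 histone genes.

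Acetylated length per gene was taken as the peak bases inside the gene and 5 kb on either side. A peak was found there for 10809 of 20665 protein-coding genes, 52.3% of them (51.6 to 53.0). A peak within 1 kb of an end was found for 41.9% (8659 genes), and 48.9% were the nearest coding gene of at least 1 peak. The median acetylated length of the 10809 genes was 1273 bp, the quartiles 661 and 2296 bp, and the median share of the window 3.29%. Over all 20665 genes the median was 247 bp. Across the 10809 genes the Spearman correlation between gene length and acetylated length was 0.018. The 25 genes with the most acetylation were nevertheless 39.8 to 900 kb long, while the median window of all coding genes was 27.5 kb. At least 5 kb was acetylated at 730 genes, 3.53% of all, and at least 20 kb at 30.

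Zmynd8, encoding a reader of acetylated histones, carried the most in its window, with 41.7 kb in 31 peaks and a highest fold of 33.8. Myh9 had 39.1 kb in 25 peaks. Counting only the peaks nearest to the gene, Myh9 had 45.0 kb and Zmynd8 42.4 kb. Trim71 had 38.3 kb in 23 peaks, filling 60.6% of its window, against 33.4% for Zmynd8. Tead1, a transcription factor gene of the Hippo pathway, had 33.7 kb, Etl4 33.1 kb and Msi2, an RNA-binding protein gene of progenitor cells, 31.6 kb. In Etl4 this was 3.63% of a gene of 900 kb. Ahdc1, Shb, Slc2a3 (a glucose transporter gene), Unc5b and Actn4 had 29.7 to 31.2 kb. Usp29 had 28.4 kb, Pmepa1 26.6 kb and Ddc 25.9 kb.

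By share of the window, among windows of at least 12 kb, short genes led. Zfp36, encoding the mRNA decay factor tristetraprolin, had 76.4% of its window acetylated, and the membrane protease gene Prss8 69.2%. Tmem253, Mea1 and Prrt2 had 68.3% to 69.0%. Maz, encoding a zinc finger factor, had 67.7%, Mcl1, a survival gene of the Bcl2 family, 67.3%, Car4, a carbonic anhydrase gene, 67.1%, and Nuak2 and Klhdc3 both 65.9%. Mea1 and Klhdc3 overlap, as Prrt2 and Maz adjoin, so the members of each pair share peaks. Given only the peaks nearest to it, Mea1 kept 1.35 kb of 9.81 kb, whereas Mcl1 had 12.5 kb against 10.9 kb in its window.

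The autosomes differed in density more than in the kind of peak they held. In all there were 12.3 peaks per Mb between the outermost peaks of the 3 lists. Chromosome 11 had the most, with 21.4 per Mb, followed by chromosomes 19, 17 with 16.4 and 7 with 15.9. Chromosome 3 had the least, with 8.92, so that the highest was 2.40 times the lowest. Median width per autosome stayed between 421 and 468 bp and median fold between 6.57 and 7.13.

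Density followed gene density. Across the 19 autosomes peaks per Mb and coding genes per Mb had a Pearson correlation of 0.906 and a Spearman correlation of 0.902, and Pearson 0.925 without chromosomes 7 and 11. With the authors' count of CpG islands per Mb it was 0.981 (Spearman 0.921). These points share 1 library and differ in base composition and length. Per 100 coding genes there were 143 peaks in all, with the highest, 168 on chromosome 15, being 1.51 times the lowest, 111 on chromosome 7. Chromosome 7 thus stood 4 of 19 by length but lowest by genes, and 44.1% of its 2030 coding genes were acetylated, against 59.5% of 1609 on chromosome 11.

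**Figure D4:**
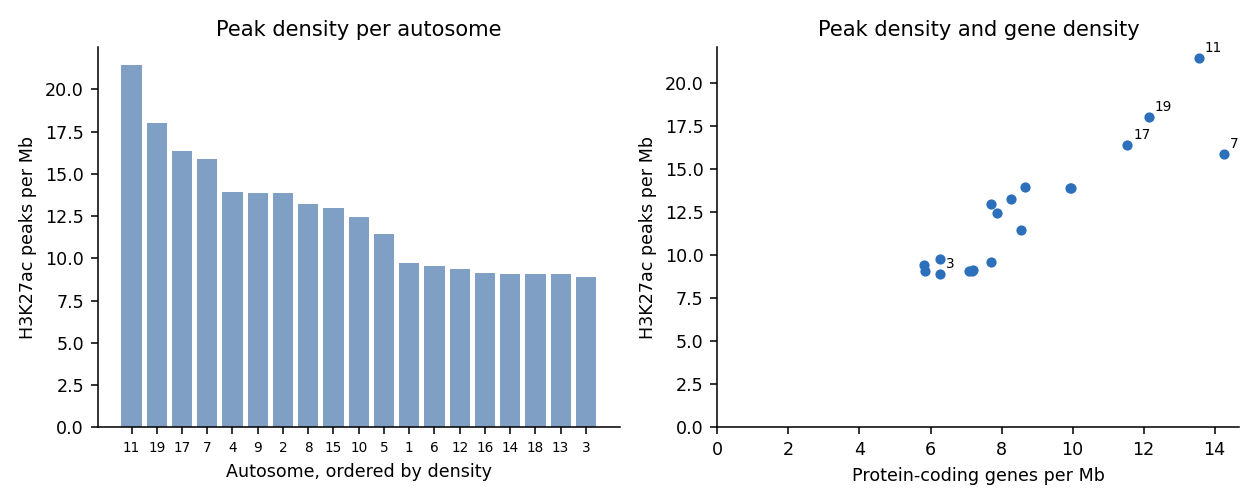
H3K27ac peaks per Mb on each autosome in order of density (left), and the same density against protein-coding genes per Mb, 1 point per autosome, with the highest 4 and the lowest labelled (right). Chromosome 11 stands highest at 21.4 peaks per Mb and chromosome 3 lowest at 8.92, and chromosome 7 lies below the trend of the others.

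Genes of basic cell functions were almost all acetylated. Over 8 lists of such genes, 293 of 304 autosomal members had acetylation (96.4%, 93.6 to 98.0), beside 52.3% of all coding genes, and 88.2% had a peak within 1 kb of an end, beside 41.9%. Their median acetylated length was 1975 bp, against 247 bp over all coding genes. The lists differed in how much they carried.

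Glycolysis carried the most by length, with all 23 members acetylated, a median of 4635 bp, and 11 members (47.8%) at 5 kb or more. Its median window was 29.8 kb, against 13.2 kb for ribosomal protein genes, and the median share of the window was 17.9% in both lists. Counting only the peaks nearest to the gene, Eno3, Tpi1 and Aldoa fell from above 5 kb to 1901, 2247 and 3763 bp. By the same count Slc2a3, Hk2, Slc2a1, Ldha and Eno1 had more than in their windows. Slc2a3 had 29.9 kb in 21 peaks with a highest fold of 24.1. The hexokinase gene Hk2 had 10.4 kb, the glucose transporter gene Slc2a1 10.1 kb and the lactate dehydrogenase gene Ldha 9.47 kb. Pkm had the highest fold, 40.6, over 5.88 kb. Gapdh had 1 peak of fold 36.2 and a length of 5003 bp. At the low end stood Pfkfb4 with 364 bp and Ldhb with 454 bp.

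The cytoskeleton list was more uneven, with 20 of 22 members acetylated and a median of 3322 bp. Myh9 had 39.1 kb, Actn4 29.7 kb, Ezr, encoding the membrane linker ezrin, 17.1 kb, and Actn1 14.4 kb. Pfn1, the profilin gene, had the highest fold in its window, 28.7, while peaks nearest to Pfn1 reached 22.1. The beta-tubulin genes Tubb2a and Tubb2b had no listed peak, the nearest being 36.0 and 32.2 kb away, while Tubb5 had 5.19 kb.

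Ribosomal protein genes mostly carried compact domains, with 72 of 75 acetylated, a median of 2434 bp and a median highest fold of 19.3 among those acetylated. Rpl23a had 7.18 kb, Rpl18 6.23 kb, Rps16 5.45 kb and Rps18 5.29 kb, and Rpl19 the highest fold, 41.0. Genes so short share windows with neighbours, and of the 7.18 kb at Rpl23a 2.91 kb came from peaks nearest to it. Rpl3, Rpl15 and Rps29 had none, with the nearest peak 16.2, 27.9 and 9.12 kb away.

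Splicing factor genes had the highest folds of the 8 lists, with a median highest fold of 22.7 among the 36 acetylated of 38. Their median length was 2284 bp. Hnrnpl had 7.70 kb, Hnrnpu 6.22 kb, Hnrnpf 6.19 kb and Srsf10 5.03 kb, and Rbm39 led by fold. Hnrnpc and Hnrnpa2b1 had none, and for Hnrnpa2b1 the nearest peak was 40.4 kb away.

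All 35 translation factor genes were acetylated and all 35 had a peak within 1 kb of an end, with a median of 1933 bp. Eif5a had 4.76 kb, Eif4a1 4.62 kb, Eif4a2 4.43 kb and Eif4b 3.75 kb, and Eif4a2 led by fold with 33.8. The 25 chaperone genes had a median of 1960 bp, led by Hsp90aa1 with 5.20 kb, Hsp90ab1 with 4.92 kb, Hspa8 with 4.12 kb and Canx with 3.70 kb. Hspd1 and Hspe1, the paired mitochondrial chaperonin genes, share 1 peak of fold 36.8. Cct7 and Hspa5, the gene of the endoplasmic reticulum chaperone BiP whose promoter is printed above, were without a peak, the nearest being 18.95 and 17.5 kb away. A gene without a listed peak lacks a peak past the authors' threshold and filters, not necessarily acetylation.

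Proteasome and respiratory chain genes carried the least of the basic functions. All 31 proteasome genes were acetylated with a median of 1015 bp, from 291 bp at Psmb6 to 3.67 kb at Psmb3. The window of Psmb3 also had the highest fold, 32.0, but the peaks nearest to Psmb3 held 789 bp and reached 9.22. Psma3 had 2.21 kb, Psmc2 2.02 kb and Psmd8 1.92 kb. Of 55 oxidative phosphorylation genes 53 were acetylated with a median of 878 bp. Atp5d had 6.10 kb, Atp5b 4.08 kb and Uqcrh 3.54 kb, and Cox5a the highest fold, 29.3. Counting only the peaks nearest to the gene, Atp5d had 2589 bp, Atp5b 1512 bp and Uqcrh 0 bp. Ndufb5 and Cox7b2, a testis form, had none, at 27.4 and 619 kb from the nearest peak.

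**Figure D5:**
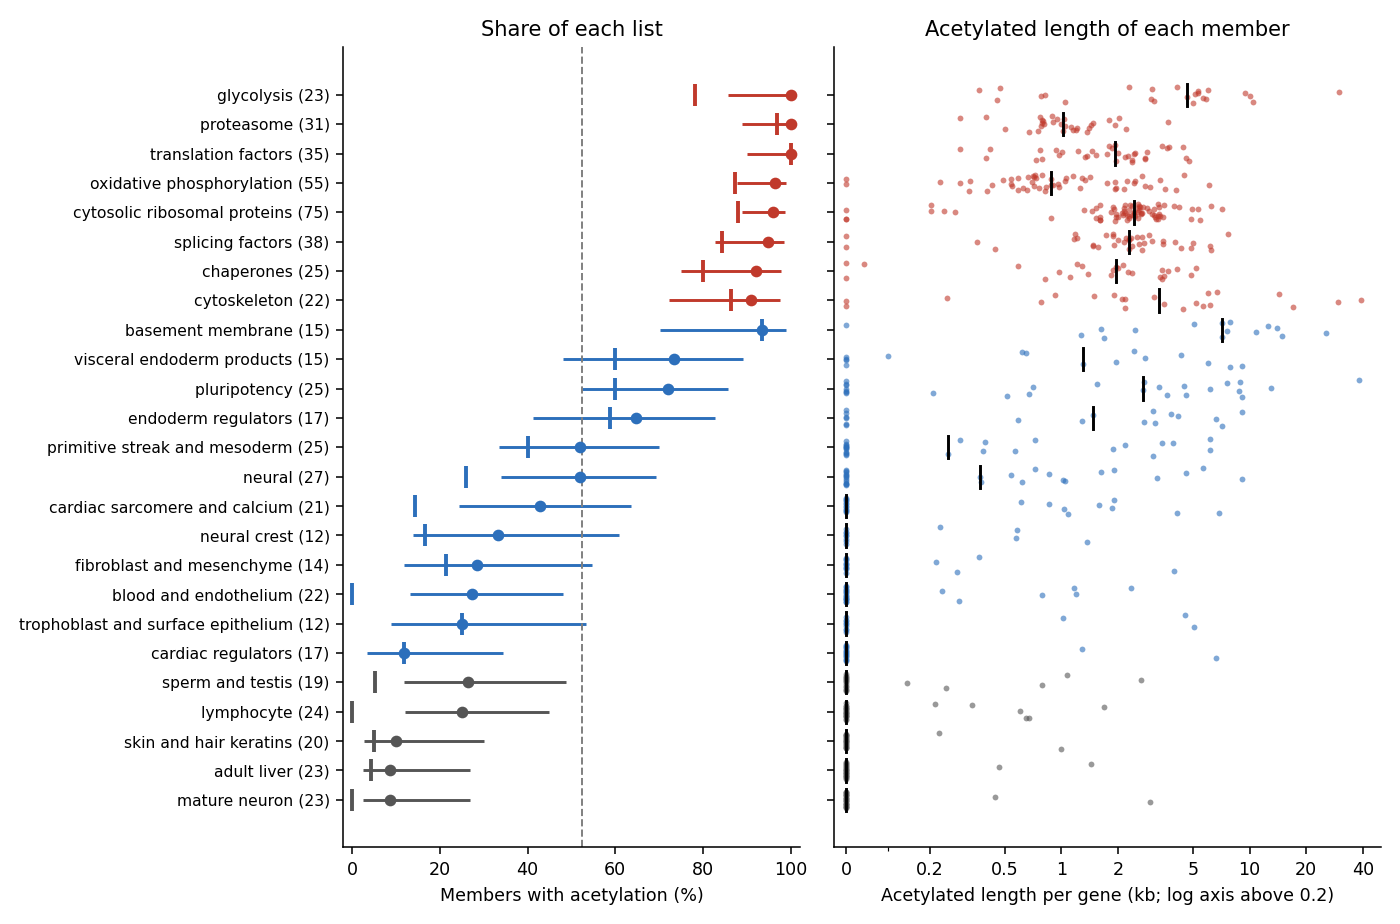
Left, percent of the autosomal members of each gene list (number in parentheses) with acetylation in the gene plus 5 kb (points, 95% Wilson intervals) and with a peak within 1 kb of an end (vertical ticks), the dashed line marking the 52.3% of all coding genes. Right, acetylated length of each member in kb with the median as a black line, for basic functions (red), lineage lists (blue) and late tissue lists (grey); glycolysis and basement membrane have the longest medians, 4635 and 7162 bp.

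Lineage genes were divided. Over 12 lists, 103 of 215 members (47.9%, 41.3 to 54.6) were acetylated in their windows, close to the 52.3% of all coding genes. A peak within 1 kb of an end was found for 72 of 215 (33.5%, 27.5 to 40.04), below the 41.9% of all coding genes. Single lists ran from 11.8% to 93.3% by windows. Members at 5 kb or more made up 12.6%, beside 3.53% of all coding genes.

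Genes of the pluripotent state were largely acetylated, with 18 of 25 members (52.4 to 85.7%) and a median of 2724 bp over all 25. Of the defining genes Pou5f1, Sox2 and Nanog, all 3 carried peaks. Nanog had 8.81 kb in 10 peaks, Pou5f1 (Oct4) 6.13 kb in 5 peaks and Sox2 4.62 kb in 5 peaks with a highest fold of 20.3. Trim71 led with 38.3 kb and a fold of 39.4, then Lin28a, an RNA-binding protein gene that blocks let-7 maturation, with 13.0 kb and 36.6. Otx2 had 9.13 kb, Sall4, a zinc finger factor gene, 8.86 kb and Lin28b 7.61 kb.

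The other members ran from no listed peak upwards. Zfp42, Prdm14, Dppa3, Dppa4, Dppa5a, Fgf4 and Nr5a2 had none. Klf4 had 207 bp, Klf2 512 bp, Klf5 673 bp, Esrrb 705 bp and Tbx3 1546 bp. Utf1 had 2724 bp, Fgf5 2764 bp, Tfcp2l1 3304 bp, Tdgf1 3644 bp and Dnmt3b 4482 bp.

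Endoderm regulators were acetylated in 11 of 17 cases (41.3 to 82.7%). At an end 10 of the 17 had a peak (58.8%), beside 41.9% of all coding genes. All 3 defining genes carried peaks, Foxa2 with 4.17 kb, Sox17 with 1.47 kb and Gata6 with 1.29 kb. Otx2 had the highest fold of this list, 17.2, and Gata4 had 6601 bp in 13 peaks. The fore- and midgut factor genes Foxa1 and Pdx1 had none, nor did Cer1.

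Products of the visceral endoderm, the layer that absorbs and exports nutrients for the early embryo, were acetylated in 11 of 15 cases. The interval of this share was 48.0 to 89.1%. Apoe had 9.09 kb, 60.3% of its window. The endocytic receptor genes Lrp2 (megalin) and Cubn (cubilin) had 7.90 kb in 15 peaks and 6.05 kb in 12 peaks, and Dab2, their adaptor, 2.79 kb in 9 peaks. Apom had 4.32 kb and the highest fold, 22.3. The secreted products Afp, Ttr, Rbp4 and Trf had no listed peak, and Apoa1 had 101 bp at the edge of its window, the nearest peak being 4.90 kb away. Of the defining genes Afp, Ttr and Apoa1, none had a peak within 1 kb of an end.

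Basement membrane genes had the longest median of all 25 lists, 7162 bp, with 14 of 15 members acetylated and 10 at 5 kb or more. Hspg2, encoding perlecan, had 25.4 kb in 15 peaks. Col18a1 had 14.9 kb in 26 peaks, Nid2 13986 bp in 21 peaks and Agrn 12.5 kb in 4 peaks with the highest fold of the list, 23.5. The laminin alpha 5 gene Lama5 had 10.9 kb. The neighbouring collagen genes Col4a1 and Col4a2 had 7.16 and 7.90 kb, in windows that overlap. Nid1 alone had none, the nearest peak being 77.6 kb away. These genes are long, with a median window of 77.8 kb against 27.5 kb for all coding genes, and their median share of the window was 6.81%.

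Streak and early mesoderm genes were acetylated in 13 of 25 cases (33.5 to 70.0%) with a median of 249 bp. Eomes had 3.08 kb in 6 peaks, while T (brachyury) and Mixl1 had none, at 62.2 and 28.4 kb from the nearest peak. Fgf8 had 6.18 kb in 13 peaks, Meis2 6.15 kb, Snai1 3.94 kb and Nodal 3.43 kb in 7 peaks. Lhx1 had the highest fold, 14.1, with its nearest peak 3.84 kb outside the gene. Mesp1, Mesp2, Gsc, Msgn1, Foxc1, Foxc2 and Twist1 had none.

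Cardiac regulators were acetylated in 2 of 17 cases, Gata4 and Gata6, and both genes also stand in the endoderm list. Nkx2-5, Tbx5, Tbx20, Mef2c, Isl1, Hand1 and Hand2 had no listed peak. Among sarcomere and calcium handling genes 9 of 21 (24.5 to 63.5%) had acetylation. At an end 3 of 21 had it (14.3%), beside 41.9% of all coding genes. Tpm1, a tropomyosin gene used in many cells, had 6.86 kb, Smyd1 4.12 kb, Tnnc1 1.91 kb and Atp2a2 1.85 kb with the highest fold, 23.8. Tnnt2, the third defining gene beside Nkx2-5 and Tbx5, and Myh6, Actc1 and Nppa had none.

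Blood and endothelium genes had no peak at an end in any of 22 cases, beside 41.9% of all coding genes. Acetylation inside the windows was found for 6, led by Egfl7 with 2.33 kb, Gfi1b with 1.19 kb, Runx1 with 1.17 kb and Etv2 with 786 bp, and Klf1 had the highest fold, 8.43. The defining genes Tal1, Kdr and Cdh5 had none, the nearest peaks lying 55.6, 106.9 and 106.4 kb away.

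Neural genes were acetylated in 14 of 27 cases (34.0 to 69.3%) and at an end in 7 (25.9%), beside 41.9% of all coding genes. Otx2 and Sox2 belong here as well as to other lists. Zic2 had 5.68 kb and its neighbour Zic5 3.22 kb with a fold of 21.7, and Hes5 had the highest fold, 21.8, at a peak 1.64 kb outside the gene. Sox1 had 1.90 kb in 5 peaks and Pax6 538 bp with none at an end. Pax7, Zic1, Neurog1, Neurog2 and Olig2 had none.

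The Wilson intervals of the remaining embryonic lists all include the 52.3% of all coding genes. So do those of the endoderm, visceral endoderm, streak, neural and sarcomere lists above, and that of the pluripotency list starts at 52.4%. These intervals cover counting error only and count members as separate cases, though some share peaks. They are not a test against the 52.3%. Neural crest genes were acetylated in 4 of 12 cases (13.8 to 60.9%), led by Msx2 with 1.37 kb, and Sox10 and Foxd3 had none while Tfap2a had 583 bp. Trophoblast and surface epithelium genes were acetylated in 3 of 12 cases (8.89 to 53.2%). These were the simple keratin genes Krt18 with 5.09 kb and Krt8 with 4.56 kb and the factor gene Gata3 with 1.02 kb, whereas Elf5 and Tfap2c had none. Fibroblast genes were acetylated in 4 of 14 cases (11.7 to 54.6%), Ccn2 with 3.95 kb, Col1a1 with 366 bp, Vim with 279 bp and Tagln with 215 bp, and Col1a2 and Thy1 had none.

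Genes of mature tissues formed the low end. Over 5 lists 17 of 109 members (15.6%, 9.97 to 23.6) had acetylation in their windows, beside 52.3% of all coding genes. A peak at an end was found for 3 of 109 (2.75%, 0.940 to 7.78), beside 41.9%. The 3 with a peak at an end were Tssk6, a testis kinase gene, F2, the prothrombin gene, and Krt10. Mature neuron genes were acetylated in 2 of 23 cases, Syt1 with 2.96 kb in 7 peaks and Syn2 with 447 bp. Adult liver genes were acetylated in 2 of 23 cases, F2 with 1.44 kb and Ass1 with 469 bp, and lymphocyte genes in 6 of 24, led by Lck with 1.68 kb. Skin and hair keratin genes had 2 of 20 and testis genes 5 of 19.

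Acetylation at miRNA genes was taken within 5 kb of the hairpin. A peak was found for 246 of 919 hairpins on autosomes, 26.8%. All 12 listed hairpins of the Mir290 cluster (chromosome 7) and the Mir302-Mir367 cluster (chromosome 3), which stem cells use, were acetylated. A peak of 2988 bp with a fold of 22.0 covered all 7 listed hairpins of the Mir290 cluster, and 3 more lay within 10 kb of it, 10.4 kb acetylated in all. At the Mir302-Mir367 cluster a peak of 1452 bp and a fold of 21.8 covered all 5 hairpins, and 10 peaks lay within 10 kb, with 10.6 kb acetylated. Hairpins of one cluster share these peaks and are not separate cases. The 6 hairpins of the cluster from Mir17 to Mir92-1 shared 2.16 kb in 4 peaks with a highest fold of 11.9.

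Mature sequences from RefSeq (GRCm38.p6) show how the acetylated hairpins share seeds, the bases 2 to 8 that pair with targets and that are in capitals here. The first 4 share AAGUGCU between both stem cell clusters, the next 3 AAAGUGC and the following 3 AUUGCAC. The last 2 come from hairpins without a listed peak. The let-7a-5p seed among them, GAGGUAG, is also that of let-7e-5p and let-7i-5p, whose hairpins were acetylated.
mmu-miR-302b-3p: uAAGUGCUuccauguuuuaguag
mmu-miR-302d-3p: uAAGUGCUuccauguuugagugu
mmu-miR-294-3p: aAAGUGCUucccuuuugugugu
mmu-miR-295-3p: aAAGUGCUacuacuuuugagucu
mmu-miR-17-5p: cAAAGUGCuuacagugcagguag
mmu-miR-20a-5p: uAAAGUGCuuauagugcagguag
mmu-miR-106b-5p: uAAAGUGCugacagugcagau
mmu-miR-367-3p: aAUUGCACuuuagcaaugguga
mmu-miR-92a-3p: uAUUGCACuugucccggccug
mmu-miR-25-3p: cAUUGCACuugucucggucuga
mmu-let-7a-5p: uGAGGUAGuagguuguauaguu
mmu-miR-9-5p: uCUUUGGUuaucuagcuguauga

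Of the 8 let-7 hairpins listed, whose miRNAs rise during differentiation and are blocked by Lin28a, 2 had acetylation, Mirlet7e with 3466 bp and Mirlet7i with 1391 bp, a share near the 26.8% of all hairpins. All 3 Mir9 hairpins, used in neurons, and all 4 listed muscle hairpins (Mir206, Mir133b, Mir208a and Mir208b) had no listed peak within 5 kb, in groups too small to set against that share. Of 4 blood and endothelial hairpins, Mir126a had 767 bp, and Mir142, Mir144 and Mir451a had none. All 5 hairpins of the epithelial miR-200 family were acetylated, with 639 to 2318 bp.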

How the data were processed

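Chromatin immunoprecipitation with sequencing was done once per antibody in day 6 embryoid bodies. The submitters' processing notes name BWA 0.7.12, SICER 1.1, MACS and MACS2 with builds mm10 and hg19, and the authors' deposited summary names MACS 2.1.0. Each peak in the deposited list has a fold over input (a ratio), a −log10 p, a −log10 q and a summit position, all from the authors. The authors removed 407 peaks in blacklisted regions. The read, peak and CpG island counts, and the fraction of peaks at features, are the authors' deposited values. Of its columns, 8 belonging to the other antibodies were not used here.

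Peaks were placed on RefSeq genes (GRCm38.p6) using pandas 2.3.3, numpy 2.4.6, scipy 1.17.1 and Python 3.11.15, with plots from matplotlib 3.10.9. Acetylated length is the peak bases in the gene and 5 kb on either side, an end is 1 kb around either gene boundary, and overlap means at least 1 bp. Strand came from the RefSeq promoter table. Interval functions were tested on simulated data. All 642 list entries matched a symbol, some genes stand in several lists, and pooled counts take each gene once. The 7 members on chromosome X were left out. Genes named are those next to the 10 highest and 10 widest peaks, the 15 longest and 10 fullest, and per list the 4 longest, the first 2 without a peak and the highest fold. Other members named were chosen after their values were seen. The members and lists were chosen with earlier results of these data known. Some genes that the rule names are not reported here. No test was run on any list. Alternatives were a stricter q, other windows, joined peaks and other lengths. Intervals and medians' ranges cover counting error only, and PCR reads without molecular identifiers are not independent molecules.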

Additional observations from a re-analysis of the deposited data

How the results depend on the processing

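With 1 library, no replicate could be left out. No paired analysis was possible because each group has a single sample. Of 45 alternative values, 12 stayed within the counting interval (for the number of peaks, within 1.5 times) and 33 left it. The order of the housekeeping, lineage and late tissue lists was the same under all 5 alternatives that gave all 3 shares. Joining gaps of up to 1 kb gave 16440 regions with a median of 909 bp. Keeping only peaks with a −log10 q of at least 10 left 23260 peaks with a median width of 537 bp, a median fold of 7.58, 44.8% at gene ends, 50.2% of coding genes acetylated and 1231 bp per acetylated gene. In these peaks CTCF overlapped 16.8% and Trim33 7.57%, a comparison chosen after seeing the data. The gene-end share was 52.1% within 2.5 kb, 43.0% for any overlap, 34.0% for coding genes alone and 34.6% for starts alone. Gene bodies alone gave 46.9% of coding genes, 90.1% of housekeeping and 7.34% of late genes, and 821 bp. With 20 kb on either side these were 61.1%, 98.0%, 27.5% and 1704 bp, with 57.2% of lineage genes. By gene ends they were 41.9% of coding, 88.2% of housekeeping, 33.5% of lineage and 2.75% of late genes, and 890 bp. Peaks of the upper part by fold gave 43.5%, 89.8% and 36.7% for coding, housekeeping and lineage genes, and 1202 bp. Assigning each peak to its nearest gene gave 48.9%. The ratio between autosomes was 1.51 per 100 coding genes. These shifts follow from the window or list each alternative defines, so a share of genes is tied to its window. Depth limits the list to sites past the authors' threshold.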

Other observations

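Families outside the lists, chosen after their values were seen, showed the range of acetylation in these cells, beside the 52.3% of all coding genes. None of the 39 Hox genes, which pattern the body axis, had acetylation in its window (0%), although the windows of the 4 clusters held 51 CTCF peaks. Hox genes of one cluster are neighbours and are not separate cases. Of 67 histone genes with H1f, H2ac, H2bc, H3c or H4c symbols 60 were acetylated, 89.6%. The median among those 60 was 3033 bp, led by H2bc6 with 8489 bp, and neighbours share peaks there. Mitochondrial ribosomal protein genes were acetylated in 75 of 78 cases and zinc finger genes named Zfp, picked by symbol, in 271 of 388. Of 1104 olfactory receptor genes 5 were acetylated, of 354 vomeronasal receptor genes 4, and of 42 beta-defensin genes none. Clustered protocadherin genes, which share long windows, were acetylated in 35 of 57 cases.

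Chromatin enzyme and Fox families, also chosen after their values were seen, are small and share the same background of 52.3%. All 10 tabulated lysine acetyltransferase genes were acetylated, Kat8 with 7709 bp and Ep300, the gene of p300, with 3040 bp and a fold of 32.0. Of 15 lysine demethylase genes 13 were, led by Kdm6b, an H3K27 demethylase gene, with 14379 bp. Foxk1 led the 19 acetylated of 41 Fox genes with 18367 bp. Among 6279 long noncoding RNA genes at least 5 kb from any coding gene, 840 (13.4%, 12.6 to 14.2) were acetylated. The share over all 12408 long noncoding RNA genes was 24.1%. The median of the 840 was 896 bp. The longest were Gm34081 with 14.4 kb and 2610307P16Rik with 12.9 kb, and Platr22 had 7.88 kb.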
